A study of Homo sapiens with 12 samples.

Results

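The polyamine pathway mRNAs described here are the 8 transcripts ODC1, OAZ1, OAZ2, AZIN1, AMD1, SAT1, SRM and SMS. They were chosen by name, as genes of polyamine synthesis and of the antizyme system, out of the 56632 genes in the tables. The choice was made with earlier results of these data known. All 8 passed the filter on low counts that left 16275 genes for testing. RNA was sequenced from ribosomal fractions of MCF10A, a line of human breast epithelium that does not form tumours, in cells that were wild type (WT) or had CBFB knocked out by CRISPR (CBFB_KO). CBFB encodes the core-binding factor beta subunit, known as the non-DNA-binding partner of the RUNX transcription factors. Cells of both genotypes, below passage 20, received 100 µg/ml cycloheximide, which holds ribosomes on mRNA, for 30 min before lysis. Lysates were separated on 10-50% sucrose gradients into RNA free of ribosomes (free), RNA on a monosome (mono) and RNA on polysomes (poly), with 2 libraries for each of the 6 conditions, 12 in all. The knockout cells were derived from single-cell colonies. The number of clones behind the 2 CBFB_KO replicates and the separate culture of replicates are not given in the sources used here. The p-values therefore measure the spread between libraries, pooled for each gene over all 12, which may be technical.

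Properties of the CBFB_KO libraries bear on every comparison that uses them. Since the test pools the spread of each gene over all libraries, they also enter the errors of the other comparisons. Library totals were 41050325 to 63886726 counts, but mitochondrially encoded RNA took 71.6% and 87.2% of the CBFB_KO free libraries against 11.1% and 20.8% of the WT free libraries, leaving 13568143 and 5247878 counts on nuclear genes in the former and at least 43279862 in each other library. The 2 CBFB_KO poly libraries were nearly the same, with a chi-square between them of 2.2 per gene against 118.5 to 901.5 in the other pairs. CBFB mRNA itself was still read in CBFB_KO cells and did not differ by the test in any fraction, with log2 changes of 0.49 in free, -0.71 in mono and -0.72 in poly, so mRNA level gave no check of the genotype labels. All 7 basal epithelial markers examined were present at a mean of at least 1 TPM (a length-corrected level, below). Summed levels of other cell types were 0.829 to 8.61 TPM over 4 blood markers, 0.0654 to 3.89 over 5 fibroblast markers and at most 0.0306 over 2 endothelial markers. PTPRC, COL1A2, LUM and CDH5 of these lists were at 0 in every library, and the macrophage marker CD68 was the 1 blood marker with a mean of at least 1 TPM.

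Polyamines (putrescine, spermidine and spermine) are small cations that bind RNA and support translation and growth. ODC1, ornithine decarboxylase, makes putrescine, and AMD1, S-adenosylmethionine decarboxylase, makes the aminopropyl donor that SRM (spermidine synthase) and SMS (spermine synthase) use to extend it. SAT1 acetylates spermidine and spermine for export or breakdown, the antizymes OAZ1 and OAZ2 bind ornithine decarboxylase and deliver it to the proteasome, and the inhibitor AZIN1, an inactive relative of the enzyme, captures antizyme. Several of these mRNAs are textbook cases of control during translation, since polyamines promote a ribosomal frameshift on antizyme mRNA and stall ribosomes on the upstream reading frame of AMD1.

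The 3 sequences that carry this control are shown because they are the elements by which polyamines act on ribosomes on these mRNAs. All are from GENCODE release 29 transcripts on GRCh38. In the 2 antizyme sites the capitals mark the last codon read in the first frame and the stop codon, whose first base is skipped when the ribosome shifts. In AMD1 the capitals mark the start and stop codons of the short upstream frame.
OAZ1: cggtggtgcTCCTGAtgcccctcaccc
OAZ2: ctgtggtgcTCCTGAtgcccctcaccc
AMD1: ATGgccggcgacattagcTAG
The OAZ1 site lies in an exon of the coding region at chr19:2271431-2271457 on the plus strand, after 68 codons of the first frame, and the base skipped is at position 2271443. The OAZ2 site lies in an exon at chr15:64691501-64691527 on the minus strand, after 32 codons, with the skipped base at position 64691515. Over these 27 bases the sites were identical at 26, the exception being G2T, with positions counted from 1 at the 5′ end and OAZ1 given first. The AMD1 frame lies in the 5′ untranslated region at chr6:110874796-110874816 on the plus strand. It begins 26 bases from the annotated transcript start and has 6 codons before its stop.

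The members also differed in the length of the 5′ untranslated region and in the number of upstream reading frames that open and close within it. Only frames that start at ATG were counted, in the members and in all other genes, so frames with other start codons are left out. AZIN1 had 1164 bases and 6 such frames, ODC1 511 bases and 2, AMD1 336 and 1, OAZ2 233 and 2, and SAT1 179 and 1. SMS with 252 bases, SRM with 81 and OAZ1 with 79 had 0. The median over 13112 annotated protein-coding genes was 199 bases, and 44.9% of them had at least 1 upstream reading frame, against 5 of the 8 members. Coding regions were short in SAT1 at 513 bases, OAZ2 at 567 and OAZ1 at 684, and longest in ODC1 at 1383, close to the median of 1368 over the same genes.

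**Figure D1:**
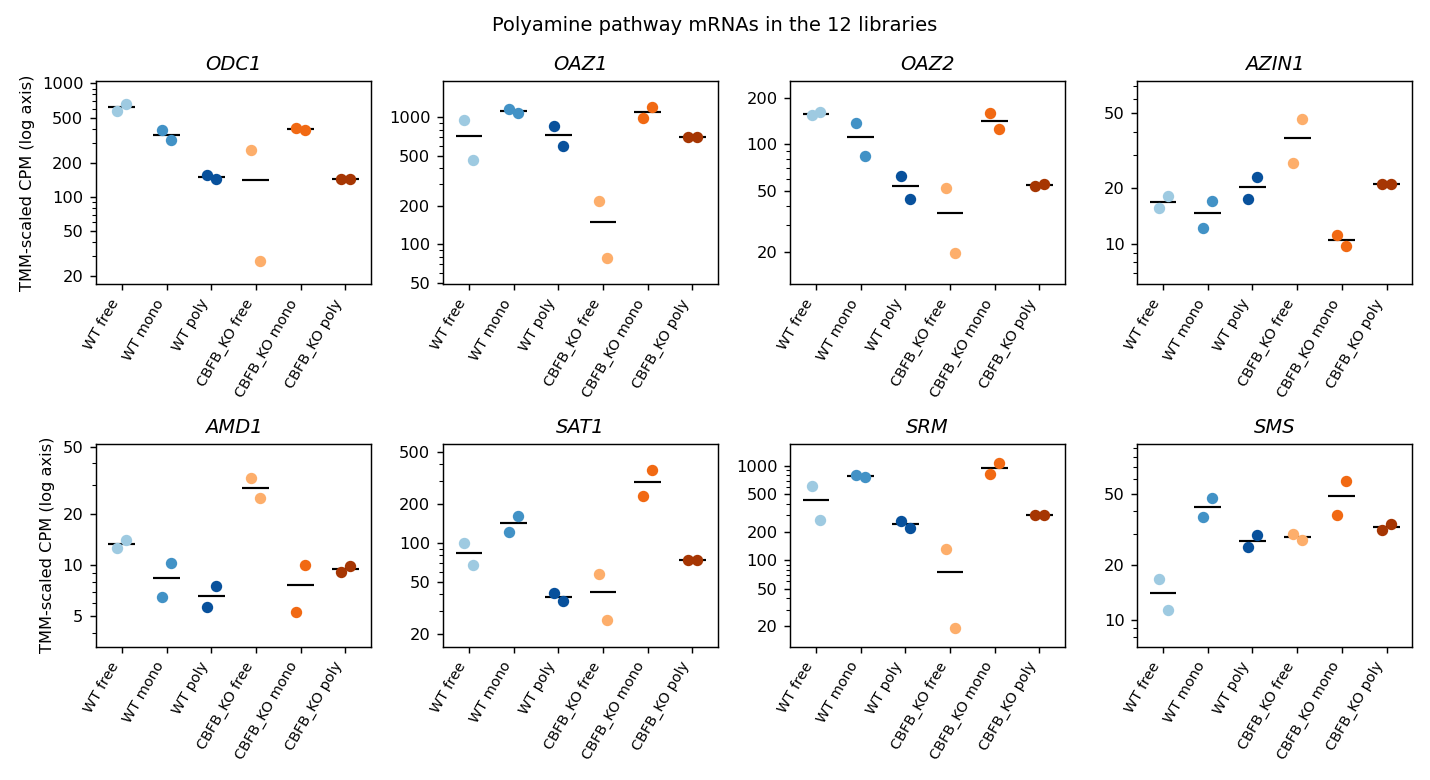
Level of each of the 8 mRNAs in every library, in CPM (read counts scaled to a common library size) on TMM-scaled library sizes (log axis), by genotype and fraction. TMM factors rescale each library so that its typical gene matches the others. Points are the 2 libraries of a condition and the line is their mean. ODC1 in the CBFB_KO free libraries was 257 and 27.3, the widest split of the plot, whereas the 2 CBFB_KO poly libraries almost coincided for all 8 mRNAs.

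Levels between genes were compared per length, as TPM, the length-corrected share of transcripts, rescaled here without mitochondrially encoded genes. In the WT poly libraries OAZ1 was the most abundant member, at 1623 ± 232 TPM (SD, n = 2 here and below), followed by SRM at 363 ± 5.03 and ODC1 at 102 ± 3.27. SAT1 at 67.3 ± 0.718 and OAZ2 at 57.6 ± 3.26 formed the middle of the order, SMS stood at 26.7 ± 6.17, and AZIN1 at 9.25 ± 3.30 and AMD1 at 3.62 ± 0.966 were lowest. Each step of this order exceeded the spread, since no library of a gene reached into the values of its neighbour. In the CBFB_KO poly libraries SAT1 stood above ODC1, with 119 and 118 TPM against 83.0 and 82.3.

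In the free fraction the order was not stable between genotypes. WT free libraries held 827 and 1354 TPM of OAZ1, 319 and 604 of SRM and 240.0 and 367 of ODC1, so SRM and ODC1 overlapped. CBFB_KO free libraries held 154 and 646 TPM of OAZ1, 39.0 and 256 of SRM and 17.3 and 213 of ODC1, and those 3 mRNAs overlapped each other. AMD1, the lowest in WT poly, was at 13.5 and 23.6 TPM there, and AZIN1 at 15.1 and 21.8.

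The comparison of poly with mono asks which of the mRNAs stood higher or lower on polysomes than on monosomes, relative to the typical gene. Because each library was scaled on its own, the changes do not measure how the copies of an mRNA divided between fractions. SAT1, the catabolic acetyltransferase, was the member called lower in poly than in mono, in both genotypes. WT SAT1 was 121 and 161 CPM in mono and 40.8 and 35.4 in poly, a log2 change of -1.89 ± 0.47 (SE, adjusted p = 0.0171, edgeR quasi-likelihood test with Benjamini-Hochberg adjustment, as for every adjusted p below). CBFB_KO SAT1 was 229 and 360 CPM in mono and 74.1 and 73.2 in poly, a log2 change of -2.0 ± 0.47 (adjusted p = 0.0172). The mono libraries lay above the poly libraries without overlap in both cases. This was 1 member called of 8 in each genotype, against 20.6% of all genes tested in WT and 16.9% in CBFB_KO, of which 9.68% and 8.66% were called lower, so the count of members was not above the background.

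Among the antizymes, OAZ2 had 138 and 83.8 CPM in WT mono and 62.5 and 44.1 in WT poly, a log2 change of -1.06 ± 0.48 that missed the threshold (adjusted p = 0.143). In CBFB_KO it had 159 and 126 in mono and 53.9 and 54.9 in poly (-1.39 ± 0.49, adjusted p = 0.0719). OAZ1 was 1170.0 and 1074 CPM in WT mono and 850.0 and 594 in WT poly, with a log2 change of -0.64 ± 0.51, and -0.65 ± 0.51 in CBFB_KO. On the TPM scale OAZ1 was higher in WT poly (1459 and 1787) than in WT mono (813 and 1032). Without TMM factors its log2 change was 0.23 in WT and 0.31 in CBFB_KO, but the median of all genes was then 0.81 and 0.82, so relative to that median OAZ1 stood at -0.58 and -0.52, against -0.59 and -0.57 with the factors.

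The synthesis enzymes SRM and ODC1 had lower CPM in every poly library than in any mono library of the same genotype. They did not pass the test on all 12 libraries. Fitted on the compared libraries only, SRM and ODC1 passed in WT, at -1.58 and -1.11 (adjusted p = 0.00611 and 0.0216). In CBFB_KO they passed at -1.46 and -1.29 (adjusted p = 0.00409 and 0.00437), with the nearly identical poly pair in that fit. The restricted fit called 6 of the 8 members in CBFB_KO and 3 in WT, and its share of all genes is not given here. Over the alternatives other than leaving out a gradient, 0 to 7582 genes were called in CBFB_KO and 2178 to 4768 in WT. SRM was 795 and 764 CPM in WT mono and 261 and 222 in WT poly (-1.69 ± 0.70, adjusted p = 0.109), and -1.65 ± 0.70 in CBFB_KO. ODC1 was 385 and 315 CPM in WT mono and 157 and 143 in WT poly (-1.22 ± 0.71), and -1.46 ± 0.72 in CBFB_KO. SMS gave -0.62 ± 0.38 in WT and -0.57 ± 0.38 in CBFB_KO. On the TPM scale SRM stayed lower in poly, at 367 and 360.0 against 537 and 449 in WT mono, as did SAT1, at 67.8 and 66.8 against 83.0 and 95.1. ODC1 did not, with 99.6 and 104 TPM in WT poly against 96.4 and 68.1 in WT mono, and CBFB_KO poly values of 83.0 and 82.3 that lay between the mono values of 106 and 72.3. In each genotype 7 of the 8 members had mono and poly libraries that did not overlap, where 67.2% of all genes in WT and 76.8% in CBFB_KO did not.

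AZIN1 pointed the other way, with 12.2 and 17.0 CPM in WT mono and 17.5 and 23.0 in WT poly, and 11.2 and 9.79 in CBFB_KO mono and 20.9 in both CBFB_KO poly libraries. Its log2 changes were 0.48 ± 0.38 and 0.99 ± 0.38, neither past the threshold. With nuclear counts as library size they were 1.30 and 1.86 and both passed (adjusted p = 0.0456 and 0.0123), a setting that moved the median of all genes to 0.74 and 0.76. AMD1 overlapped between mono and poly in both genotypes, with -0.34 ± 0.41 in WT and 0.32 ± 0.41 in CBFB_KO. Longer genes tended to be higher in poly than mono across all 16275 genes, with a Spearman correlation of change and gene length of 0.50 in WT and 0.52 in CBFB_KO, given as a description. SAT1 and OAZ1 are the shorter members at 1068 and 888 bases and AZIN1 the longest at 3870.0, and with a gene length offset in the fit SAT1 gave -1.08 in WT and -1.17 in CBFB_KO, both still called, whereas OAZ1 turned to 0.45 and 0.42 and AZIN1 in WT to -0.36.

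The SAT1 call did not hold under every setting. It was lost in both genotypes when library sizes were used without TMM factors (-1.01, adjusted p = 0.297 in WT, and -1.02, adjusted p = 0.306 in CBFB_KO), when nuclear counts gave the library size (-1.08 in both) or when 1 gradient of that genotype was left out, with values from -2.29 to -1.40. Relative to the median of all genes, SAT1 without TMM factors stood at -1.81 in WT and -1.84 in CBFB_KO. With the factors it stood at -1.84 and -1.92. With the 2 nearly identical CBFB_KO poly libraries counted as 1 sample, the CBFB_KO value was -1.99 with an adjusted p of 0.171.

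**Figure D2:**
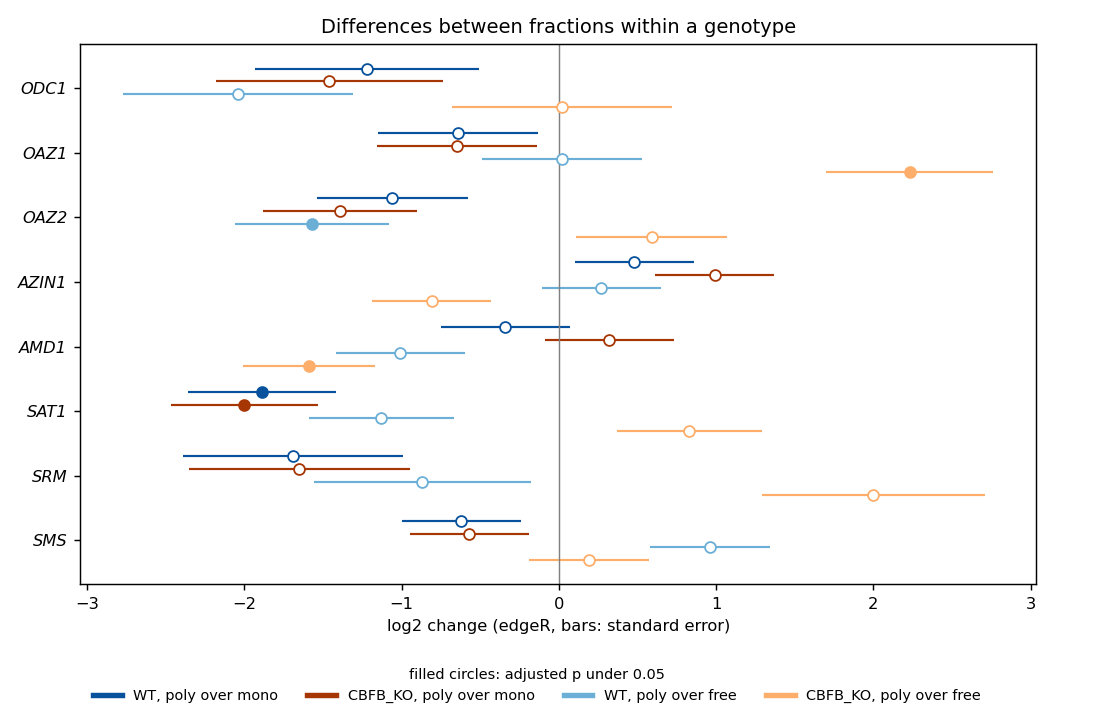
Log2 change of each mRNA between fractions within a genotype, as fitted by edgeR, with bars of 1 standard error and filled circles for adjusted p under 0.05. SAT1 is filled for poly over mono in both genotypes, OAZ2 for poly over free in WT, and OAZ1 and AMD1, in opposite directions, for poly over free in CBFB_KO.

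The comparison of poly with free asks, on the same relative scale, which mRNAs differed between polysomes and the ribosome-free top of the gradient. In WT cells OAZ2 fell in poly, from 155 and 161 CPM in free to 62.5 and 44.1, a log2 change of -1.57 ± 0.49 (adjusted p = 0.0404). It was the 1 member called, where 7.99% of all genes were called lower and 22.0% in either direction. ODC1 was lower too, at 574 and 656 CPM in free and 157 and 143 in poly, but its log2 change of -2.04 ± 0.73 had an adjusted p of 0.0662. Both mRNAs lay well apart between the fractions, and the wider error of ODC1, estimated over all 12 libraries, separated their calls. In the fit of the compared libraries only, ODC1 passed at -2.06 ± 0.35 (adjusted p = 0.0269). OAZ2 passed in that fit too, and the share of all genes it called is not given here.

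The remaining WT members were not called. AMD1 was 12.6 and 14.2 CPM in free and 5.65 and 7.61 in poly (-1.01 ± 0.41, adjusted p = 0.0974), and SAT1 gave -1.13 ± 0.46 (adjusted p = 0.0991). SMS was the one with higher poly libraries, at 25.3 and 29.5 CPM against 16.9 and 11.3 (0.96 ± 0.38, adjusted p = 0.0926). SRM changed by -0.87 ± 0.69. OAZ1 and AZIN1 overlapped between the fractions, with 0.02 ± 0.51 and 0.27 ± 0.38, and the other 6 members did not, as 62.4% of all genes did not. The OAZ2 call was lost without WT replicate 1 (-1.85) or WT replicate 2 (-1.25). It was also lost without TMM factors (-1.05), with nuclear library sizes (-1.29) and with the CBFB_KO poly pair as 1 sample (-1.55). Relative to the median of all genes, OAZ2 stood at -1.66 without TMM factors and with nuclear library sizes, against -1.65 with the factors. DESeq2 called 4 of the 8 members, but the share of all genes it called is not given here. Over the alternatives other than leaving out a gradient, DESeq2 among them, 1896 to 5084 genes were called.

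In CBFB_KO cells 2 members were called for poly against free, where 31.4% of all genes were, 14.6% higher and 16.7% lower. OAZ1 rose, from 220.0 and 77.8 CPM in free to 696 and 701 in poly (2.23 ± 0.53, adjusted p = 0.0092). AMD1 fell, from 32.7 and 24.9 CPM to 9.17 and 9.97 (-1.59 ± 0.42, adjusted p = 0.0151). SRM, at 132 and 19.4 CPM in free and 305 and 301 in poly, stood at 2.0 ± 0.71 with an adjusted p of 0.0511. It passed with the gradient as a block (2.28, adjusted p = 0.0438), and it was 1.22 without CBFB_KO replicate 2 (adjusted p = 0.337) and 3.98 without CBFB_KO replicate 1 (adjusted p = 0.00745). ODC1 overlapped, since its free libraries at 257 and 27.3 lay on either side of the poly values of 145 and 144, and it was the 1 member of 8 that did, where 78.3% of all genes did not overlap.

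These CBFB_KO values rest on the 2 free libraries with few nuclear counts. The second of them held 769 counts of OAZ1, 246 of AMD1, 192 of SRM and 270.0 of ODC1, and without the CBFB_KO replicate 2 gradient 0 members were called, with OAZ1 at 1.68 and AMD1 at -1.82. AMD1 also lost its call without CBFB_KO replicate 1 (-1.29), with the poly pair as 1 sample (-1.56) and with the length offset (-1.02), which OAZ1 did not. Without TMM factors AMD1 was at 0.57 where the median of all genes was 2.05, so relative to the median it stood at -1.47, the same as with the factors. SAT1 (0.83 ± 0.46), OAZ2 (0.59 ± 0.48), SMS (0.19 ± 0.38) and AZIN1 (-0.81 ± 0.38) were not called.

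**Figure D3:**
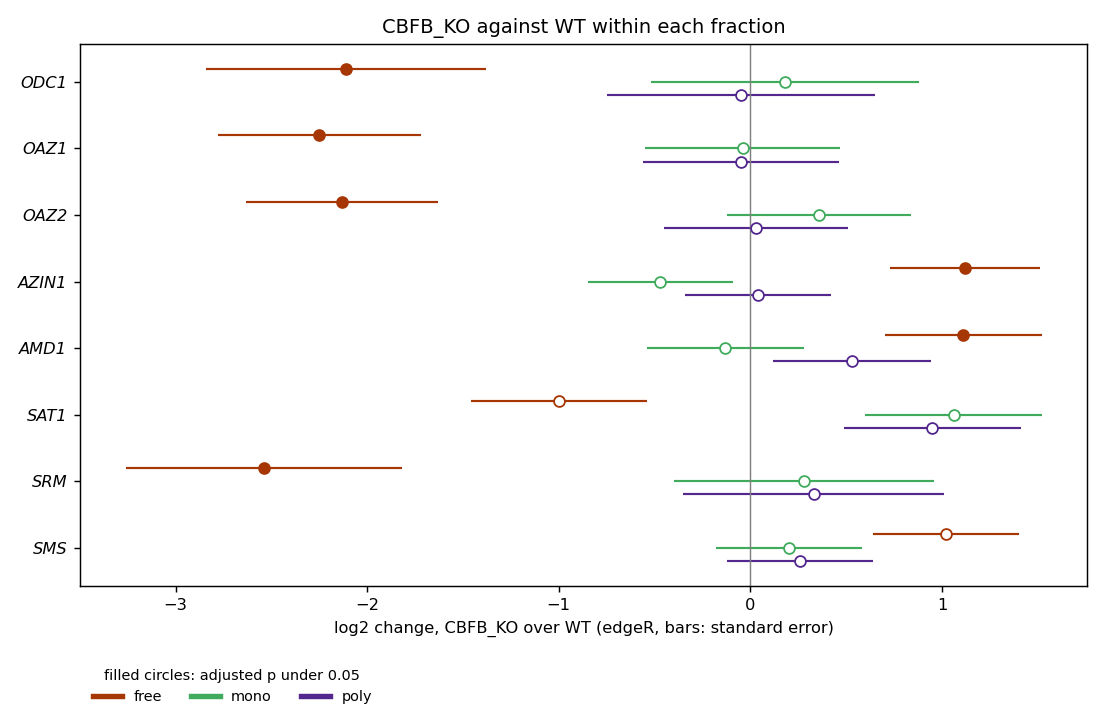
Log2 change of CBFB_KO over WT within each fraction, with bars of 1 standard error and filled circles for adjusted p under 0.05. In the free fraction ODC1, OAZ1, OAZ2 and SRM lie near -2 or below and AZIN1 and AMD1 near 1, all 6 filled, and no circle is filled in mono or poly.

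The comparison of CBFB_KO with WT within a fraction asks whether these mRNAs differed between the genotypes. In poly none of the 8 was called, where 0.190% of all genes were (31 genes). Log2 changes ran from -0.05 for ODC1 and OAZ1 to 0.95 for SAT1. ODC1 was 157 and 143 CPM in WT poly and 145 and 144 in CBFB_KO poly (SE 0.70), and OAZ1 850.0 and 594 against 696 and 701 (SE 0.51). These errors, pooled over all 12 libraries, are larger than the differences and do not show that the levels were equal. In the fit of the poly libraries alone, which holds the nearly identical pair, the errors were 0.10 for ODC1 and 0.18 for OAZ1. The 2 genotypes did not overlap for 4 of the 8 members, where 49.7% of all genes did not. The count of 0 came from edgeR, and DESeq2 also called 0 members. By edgeR 0 of the 8 had an unadjusted p under 0.05, against 451 of 16275 genes.

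In mono 0 members were called by edgeR and by DESeq2 where 0.147% of all genes were (24 genes). Log2 changes ran from -0.47 ± 0.38 for AZIN1 to 1.06 ± 0.46 for SAT1. The acetyltransferase was the 1 member with an unadjusted p under 0.05 (edgeR p of 0.0415, adjusted p = 1), where 712 of 16275 genes had one. SAT1 was 121 and 161 CPM in WT mono and 229 and 360 in CBFB_KO mono, and 40.8 and 35.4 in WT poly and 74.1 and 73.2 in CBFB_KO poly, so both fractions stood without overlap in the higher direction for the knockout. In mono 4 of the 8 members did not overlap, against 29.9% of all genes. With the fit restricted to the 4 poly libraries, SAT1 passed at 0.94 ± 0.11 (adjusted p = 0.0459). In that fit 2 of the libraries were the nearly identical pair, and its share of all genes called is not given here.

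In free 6 of the 8 members were called, where 42.3% of all genes were, and all 8 had WT and CBFB_KO libraries that did not overlap, where 68.9% of all genes did not. The 2 antizymes fell. OAZ1 was 956 and 463 CPM in WT and 220.0 and 77.8 in CBFB_KO (-2.25 ± 0.53, adjusted p = 0.00806), and OAZ2 was 155 and 161 against 52.2 and 19.8 (-2.13 ± 0.50, adjusted p = 0.00774). Their target enzyme fell with them, as ODC1 was 574 and 656 CPM in WT and 257 and 27.3 in CBFB_KO (-2.11 ± 0.73, adjusted p = 0.0382). SRM was 618 and 265 against 132 and 19.4 (-2.54 ± 0.72, adjusted p = 0.0182). These 4 lower calls compare with 18.1% of all genes called lower.

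AZIN1 and AMD1 rose in the same fraction, where 24.2% of all genes were called higher. AZIN1, the antizyme inhibitor, was 15.6 and 18.1 CPM in WT free and 27 and 46.5 in CBFB_KO free (1.12 ± 0.39, adjusted p = 0.0370). AMD1 was 12.6 and 14.2 against 32.7 and 24.9 (1.11 ± 0.41, adjusted p = 0.0497). SMS, at 16.9 and 11.3 against 29.7 and 27.7, gave 1.02 ± 0.38 and an adjusted p of 0.0505, and SAT1, at 99.5 and 67.3 against 57.7 and 25.3, gave -1.0 ± 0.46 (adjusted p = 0.0983). Within CBFB_KO free the second library was the lower of the pair for 7 members and the higher for AZIN1.

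Several measured properties moved with the free-fraction result, and their part in it was not tested. The CBFB_KO free libraries had the mitochondrial shares given above and TMM factors of 0.494 and 0.241, against 1.124 and 1.241 in WT free. The summed level of 4 luminal hormone-sensing markers was 67.1 to 89.0 TPM in CBFB_KO free and 5.40 to 13.2 in WT free. PGR was at 0 in all libraries and ESR1 at no more than 0.794. The other fractions did not show this rise, with sums of 3.04 to 3.20 in CBFB_KO poly and 4.74 to 4.75 in WT poly. In mono the sums were 0.404 to 1.35 in CBFB_KO and 0.719 to 0.973 in WT. Without the CBFB_KO replicate 2 gradient 0 of the 8 were called, although each kept its direction, with ODC1 at -1.25, OAZ1 at -1.68, OAZ2 at -1.59, SRM at -1.73, AZIN1 at 0.69 and AMD1 at 1.30. Without CBFB_KO replicate 1 the change was larger in ODC1 (-4.50) and SRM (-4.51). Without WT replicate 1 the 1 call left was OAZ2 (-2.16), and without WT replicate 2 the 3 left were OAZ1 (-2.77), OAZ2 (-2.19) and SRM (-3.12). In the fit of the 4 free libraries alone 0 were called as well, with smallest adjusted p 0.0921 for OAZ2.

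The 6 calls differed in how they moved with a length offset. Across all genes the change in free correlated with gene length at a Spearman rho of 0.44, and OAZ1 (888 bases), SRM (1146) and OAZ2 (1724) are shorter than AMD1 (3014) and AZIN1 (3870.0), while ODC1 has 2581. With a length offset the 4 lower members kept their direction and calls, at -2.89 for ODC1, -1.46 for OAZ1, -1.92 for OAZ2 and -1.95 for SRM. AZIN1 and AMD1 turned to -0.75 and -0.08, and SMS was called at 1.26. Without TMM factors, where the median of all genes was -1.57, AZIN1 was at -0.71, AMD1 at -0.52 and SMS at -0.63, while ODC1, OAZ1, OAZ2 and SRM were between -3.87 and -3.45. Relative to that median AZIN1 stood at 0.86 and AMD1 at 1.05, against 1.08 and 1.07 with the factors, so it was the length offset, not the scaling of libraries, that changed their place among the genes.

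**Figure D4:**
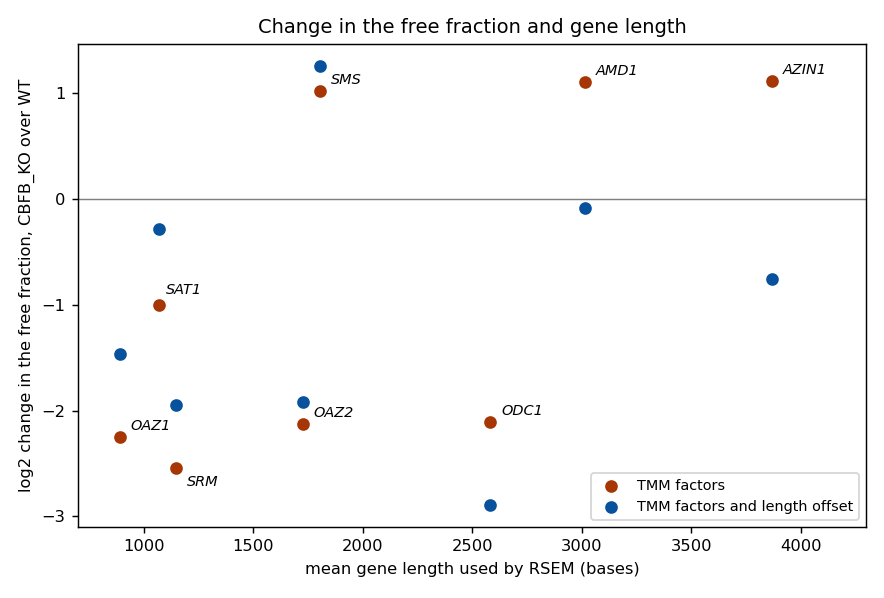
Log2 change of CBFB_KO over WT in the free fraction against the mean gene length used by RSEM, for the 8 mRNAs, with TMM factors (brown) and with a length offset added (blue). ODC1, OAZ1, OAZ2 and SRM stay below 0 in both, whereas AZIN1 moves from 1.12 to -0.75 and AMD1 from 1.11 to -0.08.

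The difference between genotypes in the poly to free ratio was tested as an interaction. OAZ2 was the 1 member called, with a ratio that was lower in poly than free in WT (-1.57) and 0.59 in CBFB_KO, a difference of 2.16 ± 0.68 on the log2 scale (adjusted p = 0.0479), where 18.4% of all genes were called and 4.10% in this direction. OAZ1 at 2.20 ± 0.72 (adjusted p = 0.0549), SAT1 at 1.96 ± 0.65 (adjusted p = 0.0576) and SRM at 2.87 ± 0.98 (adjusted p = 0.0621) were of like size and missed the threshold. ODC1 gave 2.06 ± 1.0, AZIN1 -1.08 ± 0.54, SMS -0.77 ± 0.54 and AMD1 -0.58 ± 0.58. The poly libraries of the genotypes were close for OAZ2, at 62.5 and 44.1 CPM in WT and 53.9 and 54.9 in CBFB_KO, and the free libraries were the ones that differed. The call was lost without WT replicate 1 (2.45), WT replicate 2 (2.03) or CBFB_KO replicate 2 (1.61). It was also lost with nuclear library sizes (1.86, adjusted p = 0.0799), with the CBFB_KO poly pair as 1 sample (2.16, adjusted p = 0.155) and in the fit of the compared libraries only (2.17, adjusted p = 0.0746). This ratio shares the free libraries with the free-fraction comparison above.

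The poly to mono ratio, which does not use the free libraries, differed between genotypes for 0 members, and 0% of all genes were called by edgeR. Differences ran from -0.33 ± 0.67 for OAZ2 to 0.66 ± 0.58 for AMD1, and SAT1, called in each genotype alone, differed by -0.11 ± 0.65. None of the 8 had an unadjusted p under 0.05, against 164 of all genes, and DESeq2 also called 0.

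Another 25 genes around the pathway were listed, covering catabolism, the rest of the antizyme family, hypusine formation, arginine and ornithine supply, the methionine side and transport, and 22 were tested. For poly against mono in WT, 5 rose and 1 fell, with a median log2 change of 0.23 against -0.04 over all genes, and in CBFB_KO again 5 rose and 1 fell. These 6 of 22 in each genotype compare with 20.6% and 16.9% of all genes. OAZ3, a further antizyme known from testis, fell by 3.67 on the log2 scale in WT (adjusted p = 0.00313) and its change was -3.36 in CBFB_KO, but OAZ3 overlaps MRPL9 and TDRKH on the other strand and the library kit does not mark strand. OAT, the mitochondrial ornithine aminotransferase, rose by 3.34 in WT and 3.46 in CBFB_KO. SLC3A2, the heavy chain of amino acid transporters, rose by 2.20 and 1.78, and ARG2, the mitochondrial arginase that yields ornithine, by 2.63 and 2.0.

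For CBFB_KO against WT in free, 5 of the 22 rose and 6 fell, where 24.2% of all genes rose and 18.1% fell. ATP13A3, a polyamine transporter, rose by 4.38 ± 0.68 (adjusted p = 0.00092), SLC7A1, the cationic amino acid transporter, by 2.68, and MAT2A, which makes S-adenosylmethionine, by 2.14. OAT rose by 2.52. SMOX, spermine oxidase, chosen for naming after its values were seen, fell (-3.79 ± 0.89, adjusted p = 0.00784). In mono and poly 0 of the 22 were called. SMOX stood at -1.79 and -1.80 there with adjusted p of 1. For the poly to free ratio 5 of the 22 were lower in CBFB_KO, namely SLC7A1 (-2.97), OAT (-3.16), ATP13A3 (-3.69), MAT2A (-2.21) and SLC18B1 (-1.92), and 0 were higher, where 14.3% of all genes were called lower and 4.10% higher. With the length offset 1 of the 22 was called, and with the CBFB_KO poly pair as 1 sample 0 were.

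Likeness of pattern was measured as Pearson's r of log2 CPM over the 12 libraries, which share fractions and the 2 low-count CBFB_KO free libraries. Among all tested genes the one most like OAZ1 was MPG (r = 0.998), that most like SRM was MRPL12 (0.998) and that most like ODC1 was EIF2D (0.993). OAZ2 was closest to HSD17B1-AS1 (0.990), SAT1 to LINC01116 (0.989), AMD1 to SPDL1 (0.976), SMS to PTGES3 (0.973) and AZIN1 to NAPG (0.964). Between members, OAZ1 and SRM had r = 0.96 and ODC1 and OAZ2 r = 0.95, and without the CBFB_KO free libraries these were 0.87 and 0.96 over 10 libraries. AZIN1 ran against SRM, with r = -0.95 over 12 libraries and -0.88 over 10.

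Reads on OAZ1 cannot be told apart from those of JSRP1 where these genes overlap on opposite strands, and the same holds for AZIN1 and AZIN1-AS1. It holds too for OAZ2 with the antisense genes AC100830.1, AC100830.2 and AC100830.3, and for AZIN1 with AP003696.1 and AP003354.1, none of which passed the filter. ODC1 overlaps SNORA80B on its own strand.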

How the data were processed

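The labels and processing notes name Trimmomatic, STAR, RSEM and the build hg19 (tool versions not given in the sources used here), and each library has 1 table. The deposited expected counts are the estimated reads per gene from RSEM, as the authors left them without normalization. TPM as deposited by the authors has 1 common sum in all libraries. FPKM as deposited was not used. Members and lists were chosen with earlier results of these data known.

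Expected counts, rounded, went into the quasi-likelihood test of edgeR (version 4.0.16, with limma 3.58.1 in R 4.3.3). The fit used TMM factors, filterByExpr on the 6 conditions and 1 mean per condition over 12 libraries, with a Benjamini-Hochberg threshold of 0.05. The SE is the log2 change over the square root of F, in size. Alternatives were DESeq2 1.42.0, other library sizes, no filter, blocks, a length offset, the CBFB_KO poly pair as 1 sample, the compared libraries only, and leaving out each gradient. The fit was run on simulated counts with large changes in a single comparison, CBFB_KO against WT in poly. Their spread was the same for all genes and libraries, unlike the uneven pairs here, so that run does not test the errors given above. TPM was rescaled without 37 mitochondrial genes. Lengths are RSEM's means. GENCODE release 29 (GRCh38) gave coordinates and sequences, so these are not on the build of the counts. From the wider list, the text names mainly the 4 called genes with the smallest p in a comparison. Other values and the figures came from Python 3.11.15 with pandas 2.3.3, numpy 2.4.6, scipy 1.17.1 and matplotlib 3.10.9.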

Additional observations from a re-analysis of the deposited data

Results flagged for a closer look

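The poly to free ratio of OAZ2 differed between the genotypes by the test of the difference itself, at 2.16 on the log2 scale (SE 0.68, adjusted p = 0.0479, edgeR), from -1.57 in WT to 0.59 in CBFB_KO. Over its alternatives the difference stayed positive, from 1.61 to 3.66, with adjusted p from 0.00196 to 0.294. It was highest without TMM factors and lowest without the CBFB_KO replicate 2 gradient. Without the factors the median of all genes was 1.54, so relative to it OAZ2 stood at 2.12, against 2.26 with them.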

How the results depend on the processing

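Of the 984 log2 changes of members recomputed under the alternatives, 788 kept their direction and side of the threshold, 78 passed it where the reported value did not, 53 lost it and 65 turned in sign. The cause was not tested where none is given by the construction of the alternative, as with fewer libraries. Library sizes without TMM factors moved the median of all genes by up to 2.17. The 14 changes in sign without TMM factors and the 6 with nuclear library sizes stayed on the same side of that median, so they follow from the shift of all genes. Leaving out a gradient left conditions with 1 library, assumed to vary like the others. In the second CBFB_KO free library the members held 192 to 769 counts each. Counts of all genes called ranged widely as well, from 1623 to 8258 against 6882 for CBFB_KO against WT in free, from 546 to 8235 against 5104 for CBFB_KO poly against free, from 0 to 7582 against 2744 for CBFB_KO poly against mono, from 1561 to 5084 against 3574 for WT poly against free, from 0 to 4768 against 3360 for WT poly against mono, from 362 to 5377 against 3000 for the difference in the poly to free ratio, from 2 to 121 against 24 and from 0 to 173 against 31 for CBFB_KO against WT in mono and poly, and from 0 to 16 against 0 for the poly to mono ratio. The difference between replicates 1 and 2 in WT correlated with that in CBFB_KO at 0.07 in free, 0.24 in mono and 0.03 in poly. These values cannot decide whether same-numbered replicates shared a batch, and they do not bear on the fractions of 1 gradient. Counts of members called under an alternative, below, are given without the share of all genes called under that same setting.

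For WT poly against mono, the 1 member called became 0 without TMM factors, 2 without the filter and with the length offset and replicate block and 3 in the fit of the compared libraries only and by DESeq2, and 0 to 2 on leaving out a gradient. The 6 listed genes called became 0 to 5 on leaving out a gradient. OAZ1 went from -0.64 to 0.23 without TMM factors, 0.15 with nuclear library sizes, 0.45 with the length offset and 0.44 with the length offset and replicate block. AZIN1 went from 0.48 to -0.36 with the length offset and with the length offset and replicate block. AMD1 went from -0.34 to 0.56 without TMM factors and 0.48 with nuclear library sizes. SMS went from -0.62 to 0.26 without TMM factors and 0.19 with nuclear library sizes. For CBFB_KO poly against mono, the 1 member called became 2 with nuclear library sizes (AZIN1 and AMD1, with SAT1 lost), and 2 (SAT1 and OAZ2) with the replicate block, with the length offset and with the length offset and replicate block, 3 without the filter and by DESeq2, 0 with the CBFB_KO poly pair as 1 sample and 6 in the fit of the compared libraries only, and 0 to 1 on leaving out a gradient. The 6 listed genes called became 3 with the length offset, 0 with the CBFB_KO poly pair as 1 sample and 11 in the fit of the compared libraries only, and 0 to 7 on leaving out a gradient. OAZ1 went from -0.65 to 0.31 without TMM factors, 0.24 with nuclear library sizes, 0.42 with the length offset and 0.43 with the length offset and replicate block. AMD1 went from 0.32 to -0.34 with the length offset and -0.30 with the length offset and replicate block, and between -0.01 and 0.81 on leaving out a gradient. SMS went from -0.57 to 0.41 without TMM factors and 0.35 with nuclear library sizes. For WT poly against free, the 1 member called became 0 without TMM factors and with the CBFB_KO poly pair as 1 sample, 2 without the filter and in the fit of the compared libraries only, 3 with the length offset and 4 with the length offset and replicate block and by DESeq2, and 0 to 2 on leaving out a gradient. The 5 listed genes called became 3 with the CBFB_KO poly pair as 1 sample and 2 in the fit of the compared libraries only, and 1 to 4 on leaving out a gradient. OAZ1 went from 0.02 to -0.001 in the fit of the compared libraries only and -0.11 by DESeq2, and between -0.10 and 0.38 on leaving out a gradient. AZIN1 went from 0.27 to -0.69 with the length offset and -0.70 with the length offset and replicate block. For CBFB_KO poly against free, the 2 members called became 6 without TMM factors, 1 with the CBFB_KO poly pair as 1 sample and 4 by DESeq2, and 0 to 3 on leaving out a gradient. The 9 listed genes called became 17 without TMM factors and 2 with the CBFB_KO poly pair as 1 sample, and 0 to 10 on leaving out a gradient. ODC1 went from 0.02 to -0.02 by DESeq2, and between -0.81 and 2.42 on leaving out a gradient. AZIN1 went from -0.81 to 1.55 without TMM factors, 0.15 with the length offset and 0.16 with the length offset and replicate block. AMD1 went from -1.59 to 0.57 without TMM factors. SMS went from 0.19 to -0.01 with the length offset. For CBFB_KO against WT in free, the 6 members called became 3 with the CBFB_KO poly pair as 1 sample and 0 in the fit of the compared libraries only, and 0 to 6 on leaving out a gradient. The 11 listed genes called became 4 in the fit of the compared libraries only, and 4 to 12 on leaving out a gradient. AZIN1 went from 1.12 to -0.71 without TMM factors, -0.75 with the length offset and -0.76 with the length offset and replicate block. AMD1 went from 1.11 to -0.52 without TMM factors, -0.08 with the length offset and -0.09 with the length offset and replicate block. SMS went from 1.02 to -0.63 without TMM factors. For CBFB_KO against WT in mono, OAZ1 went from -0.04 to between -0.19 and 0.11 on leaving out a gradient. AMD1 went from -0.13 to between -0.67 and 0.26 on leaving out a gradient. SMS went from 0.20 to between -0.16 and 0.49 on leaving out a gradient. For CBFB_KO against WT in poly, the 0 members called became 1 in the fit of the compared libraries only. The 0 listed genes called became 1 in the fit of the compared libraries only. ODC1 went from -0.05 to 0.01 with the length offset and replicate block, and between -0.09 and 0.01 on leaving out a gradient. OAZ1 went from -0.05 to between -0.24 and 0.23 on leaving out a gradient. OAZ2 went from 0.03 to between -0.16 and 0.30 on leaving out a gradient. AZIN1 went from 0.04 to between -0.15 and 0.29 on leaving out a gradient. For the difference in the poly to free ratio, the 1 member called became 4 without TMM factors, with the length offset and replicate block and by DESeq2, 0 with nuclear library sizes, with the CBFB_KO poly pair as 1 sample and in the fit of the compared libraries only, 5 without the filter and 3 with the replicate block, and 0 to 5 on leaving out a gradient. The 5 listed genes called became 1 with the length offset, 2 with the length offset and replicate block and 0 with the CBFB_KO poly pair as 1 sample, and 0 to 6 on leaving out a gradient. AZIN1 went from -1.08 to 0.74 without TMM factors, 0.85 with the length offset and 0.86 with the length offset and replicate block. AMD1 went from -0.58 to 1.04 without TMM factors, 0.67 with the length offset and 0.68 with the length offset and replicate block. SMS went from -0.77 to 0.89 without TMM factors. For the difference in the poly to mono ratio, OAZ1 went from -0.01 to 0.08 without TMM factors, 0.09 with nuclear library sizes, 0.01 with the gradient block and 0.07 in the fit of the compared libraries only, and between -0.15 and 0.20 on leaving out a gradient. SAT1 went from -0.11 to between -0.42 and 0.26 on leaving out a gradient. SRM went from 0.04 to between -0.16 and 0.26 on leaving out a gradient. SMS went from 0.06 to between -0.18 and 0.36 on leaving out a gradient.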
